A study of Drosophila melanogaster with 12 samples.

Results

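The glutathione S-transferase genes of Drosophila melanogaster were followed in embryos of 4 genotypes that bear on mitochondria. Members were the genes whose symbol in the deposited count table starts with Gst followed by a class letter (D, E, O, S, T or Z) and a digit, which found 35 of 17868 genes. The 35 divide into 11 delta, 14 epsilon, 3 omega, 1 sigma, 4 theta and 2 zeta genes. Enough reads for a test were present in 33 of them, and GstE2 and GstE4 were not tested.

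Glutathione S-transferases are mostly soluble enzymes that join the tripeptide glutathione to electrophilic molecules, among them plant toxins, insecticides and the reactive aldehydes left by lipid peroxidation, which makes them easier to remove. The delta and epsilon classes are specific to insects and arthropods, expanded by local duplication, and hold many of the detoxification enzymes whose genes respond to xenobiotics and oxidants. The sigma, omega, theta and zeta classes are shared with mammals. Sigma enzymes of flies conjugate the lipid peroxidation product 4-hydroxynonenal, omega enzymes carry a cysteine in place of the usual catalytic residue and act as thiol transferases, and zeta enzymes work in tyrosine breakdown.

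RNA captured on poly(T) beads was sequenced from 12 libraries, 3 biological replicates per genotype by the series' design text, and each replicate was a pool of 70 to 100 embryos sorted by hand at cellularization and gastrulation. The genotypes were Control, Drp1SG, SOD2i and the combination of the last pair, called the double genotype here. Drp1 encodes a dynamin-family GTPase of mitochondrial fission, and Sod2 the superoxide dismutase of the mitochondrial matrix. The name SOD2i is taken to mean RNA interference of Sod2. The labels give neither the meaning of SG, nor a driver, an insertion or the alleles that the controls carry, and they name no agent other than the genotype. Eggs came from cages held at 28 °C. Genotypes that laid enough were collected for 1 h and aged 1.5 to 2 h, and the others were collected over 2.5 to 3 h without ageing. The labels do not say which genotypes these were, so collection and genotype cannot be told apart. Because whole embryos were pooled, fewer cells of a type and less RNA per cell cannot be told apart in any difference below.

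The libraries held 61757756 to 91949037 reads in genes. Levels are CPM, read counts scaled to library depth, after TMM scaling of the libraries, 3 reads in a library equal 0.0314 to 0.0499 CPM, and this floor covers counting error only. Sod2 averaged 50.8 ± 0.691 CPM in control (SD, n = 3 here and in all means below), 49.5 ± 3.58 with Drp1SG, 1.82 ± 0.486 with SOD2i and 3.04 ± 0.513 with both. Drp1 averaged 36.02 ± 2.41 CPM in control, 83.97 ± 17.5 with Drp1SG, 22.1 ± 3.02 with SOD2i and 43.6 ± 0.645 with both. Of the markers of cellularization, slam was at 778 CPM or more in every library, while nullo, bnk and Sry-alpha had 0 reads in all 12, as had Kr and cup, although embryos of this age are known to use them, so a 0 in this table is not always absence.

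In control embryos the family was dominated by a few genes. Per kilobase of annotated exon, the scale on which genes are compared here, GstS1 was highest with 105 ± 3.24 CPM per kb. GstO2 followed with 88.002 ± 6.296, and GstT1 with 78.2 ± 4.19 CPM per kb. The ranges of GstO2 (80.7 to 91.6 CPM per kb) and GstT1 (74.1 to 82.4) overlapped, whereas GstS1 (102 to 108) stood above both in every control library. GstE1 with 46.3 ± 2.53 and GstE13 with 44.1 ± 5.502 CPM per kb came next and also overlapped, then GstZ1 with 22.1 ± 2.2002, GstE7 with 19.2 ± 1.49 and GstD9 with 13.96 ± 2.17. GstS1, GstO2 and GstT1 together made up 59.7% to 68.8% of the summed CPM of the family in each library. At the low end, GstE10 had 0 reads in all 3 control libraries, and GstE2 and GstE4 had 50 and 27 reads over all 12 libraries, 0 to 10 and 0 to 6 per library.

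The order changed among the leading genes. GstT1 ranked first per kb in Drp1SG, with 93.1 ± 3.21 CPM per kb against 77.2 ± 4.42 for GstS1, and first in SOD2i, with 91.7 ± 6.17 against 89.5 ± 7.06 for GstO2 and 65.1 ± 7.83 for GstS1. In SOD2i the ranges of GstT1 (86.2 to 98.3 CPM per kb) and GstO2 (81.8 to 95.7) overlapped. In the double genotype GstS1 was first again with 96.9 ± 5.69 CPM per kb, and its range (92.0 to 103) overlapped that of GstT1 (84.1 to 94.3). GstD1 ranked 17 of 35 in control and 8 in Drp1SG, and GstE10 moved from 35 in control to 20 in the double genotype.

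The summed level of all members differed little between genotypes, with 687 ± 34.4 CPM in control, 639.9 ± 11.8 with Drp1SG, 639 ± 34.9 with SOD2i and 672 ± 34.9 with both. The classes did not move together. Summed CPM of the delta class were 27.5 ± 3.41 in control, 43.1 ± 4.29 with Drp1SG, 45.7 ± 1.898 with SOD2i and 49.6 ± 5.36 with both, or 157%, 166% and 180% of control. Most of this rise came from GstD1, with means of 2.58, 15.96, 4.01 and 8.23 CPM in that order, and GstD9, with 10.97, 14.9, 30.02 and 26.7. GstD5, the next delta gene in level, was at 7.29, 4.72, 5.36 and 7.76 CPM. Zeta sums stood at 155%, 144% and 136% of control in the same order, and theta sums at 121%, 123% and 110%. The sigma class, which is GstS1 alone, stood at 73.3%, 61.8% and 92.0% of control. Epsilon sums of 134 ± 10.2 CPM in control were within 92.0% to 95.7% of that in the other genotypes, and omega sums were at 84.9%, 102% and 82.5%.

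**Figure D1:**
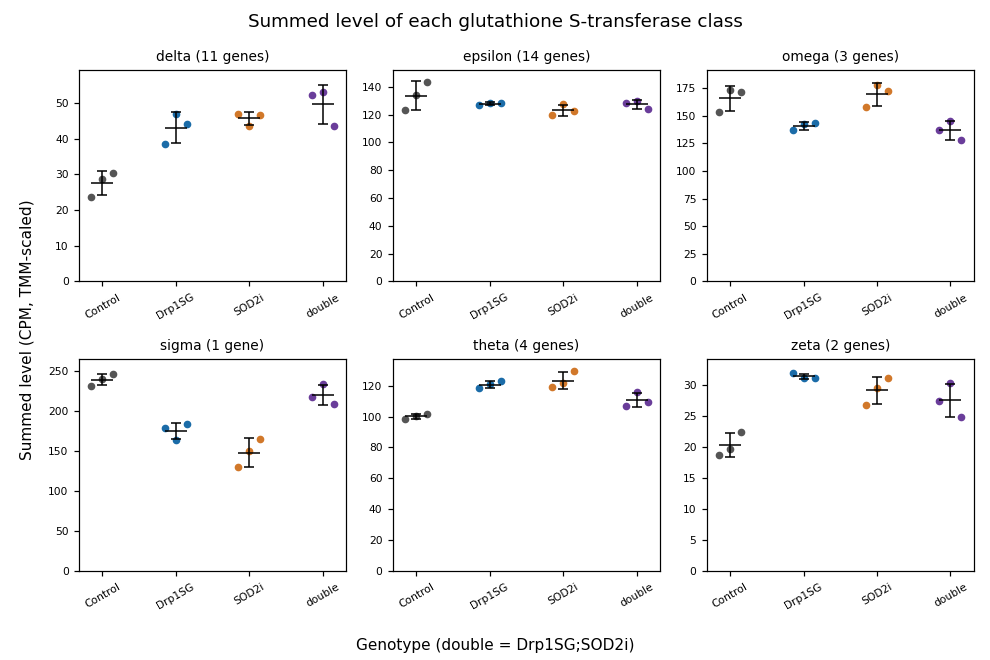
Summed level of each class (CPM, linear axis from 0) in the 4 genotypes, with 1 point per library and the mean ± SD of 3 libraries as bars. Every delta and zeta sum outside control lies above the 3 control libraries, the sigma sums of Drp1SG and SOD2i (130 to 184 CPM) lie below the control ones (232 to 246 CPM), and the epsilon sums overlap.

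Each gene was tested with edgeR's quasi-likelihood test over 9863 genes, and a call means a Benjamini-Hochberg adjusted p below 0.05. Fold changes below are on the log2 scale, given ± their standard error. GstE10, with 0 reads in control, reached the filter on low counts only through the other genotypes and had to differ from control, so it is left out of the counts against control and of the interaction, which cover 32 members. GstD7, GstD10, GstE3 and GstZ2 also reached the level of that filter (0.145 CPM) in all 3 libraries of some genotypes and not of others, and the counts below are descriptions. In Drp1SG, 16 of the 32 were called, 10 higher and 6 lower than control, where 18.6% of all tested genes were called, 9.72% higher and 8.83% lower. Of the 32, 6 were called with a change of at least 2-fold, where 7.52% of all tested genes were. Among the 1830 tested genes that were called, 742 changed at least 2-fold. Backgrounds of 2-fold changes are shares of all tested genes, here and below. The median log2 fold change was 0.32 for the members and 0.01 for all tested genes, and the median size without sign was 0.57 against 0.23.

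In SOD2i, 12 members were called, 9 higher and 3 lower than control, with a background of 23.2% of all tested genes, 10.3% higher and 12.8% lower. Of the 32 members, 4 were called with a change of at least 2-fold (8.97% of all tested genes). The median log2 fold change of the 32 was 0.04, against 0.00 over all genes, and the median size 0.45 against 0.24. In the double genotype, 8 members were called, 5 higher and 3 lower, with a background of 8.91%, 4.62% higher and 4.29% lower, and 4 changed at least 2-fold (background 4.35%). The median was 0.13 against 0.00, and the median size 0.32 against 0.20. The 3 comparisons share the control libraries, so their values are set side by side below and not taken as separate evidence. The authors' deposited DESeq2 comparisons give an adjusted p for all 35 members, GstE2 and GstE4 included. Leaving out GstE10, 10 were higher and 6 lower there in Drp1SG at an adjusted p under 0.05. In SOD2i 7 were higher and 2 lower, and in the double genotype 5 higher and 3 lower. The share of all genes called in those comparisons is not given here, so these counts have no background.

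The libraries also differed in RNA of egg-loaded genes and of markers of stage and tissue. Whether the make-up of the embryos differed was not tested. An index was taken over 22 genes, egg-loaded transcripts known to be cleared in the early embryo and genes needed for that clearance. Their mean log2 CPM, here the maternal index, was 5.92, 6.31 and 6.34 in Drp1SG against 5.51, 5.45 and 4.50 in control, with no overlap. It was 6.01, 4.61 and 5.54 in SOD2i, and 5.86, 5.49 and 5.55 in the double genotype. With this index as a covariate, the Drp1SG calls of GstD1, GstD3, GstD5, GstD11, GstE14 and GstO2 against control were lost. In SOD2i against control, calls of GstD2, GstE1, GstE6, GstE9 and GstE13 were gained. The covariate also gained GstE1, GstE7 and GstE13 in the double genotype against Drp1SG, and GstT1 in the interaction. The 9 markers of differentiated tissue of later embryos summed to 6.57 to 7.96 CPM in the control libraries. Sums with Drp1SG were 9.42 to 19.0 CPM, those with SOD2i 9.45 to 10.3, and those with both 14.9 to 50.5. The top Drp1SG sum, in replicate 1, held 7.53 CPM of Act57B and 2.82 of Col4a1. Mean elav was 0.0317 CPM in control, 0.707 with Drp1SG, 1.29 with SOD2i and 0.0988 with both. Other genes of the list went otherwise. In the same order, mean nSyb was 2.90, 2.44, 2.39 and 2.92 CPM, and mean Syt1 0.808, 0.652, 0.225 and 0.854. Double-genotype replicate 2 was high in Act57B, Mhc and Col4a1, at 20.8, 11.9 and 7.88 CPM. It was also the highest of that genotype in nSyb and Syt1, at 3.44 and 1.27 CPM. Its Hml, elav and Lsp2 were the lowest of that genotype, at 5.13, 0.0286 and 0 CPM. Without double-genotype replicate 2, the calls of GstE1 and GstZ1 in the double genotype against control were lost. The cellularization gene slam was at 827 to 2047 CPM in control, 778 to 1091 in Drp1SG, 1846 to 1914 in SOD2i and 1371 to 1696 in the double genotype, the last 3 without overlap. The summed level of the gastrulation genes twi, sna, fog and T48 was 449 to 475 CPM in the control libraries and 455 to 515 with SOD2i. Sums of 397 to 435 CPM with Drp1SG and 389 to 421 with both lay below these. That held for the sum and not for each gene. Mean twi, sna and T48 stood at 76.3% to 85.3% of control in the genotypes with Drp1SG. Mean fog stood at 121% of control with Drp1SG, 108% with both and 110% with SOD2i, with libraries that overlapped control. Markers of adult females (8 genes, Cp36 and Cp38 at 0) summed to 1.79 to 2.35 CPM in control, 0.936 to 1.79 in Drp1SG, 1.053 to 1.51 in SOD2i and 2.196 to 2.77 in the double genotype. Markers of adult fat body and gut (4 genes, none at 0) summed to 0.192 to 0.428, 0.196 to 0.358, 0.470 to 0.577 and 0.626 to 1.23 CPM in the same order. The part of these markers in the results was not tested.

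**Figure D2:**
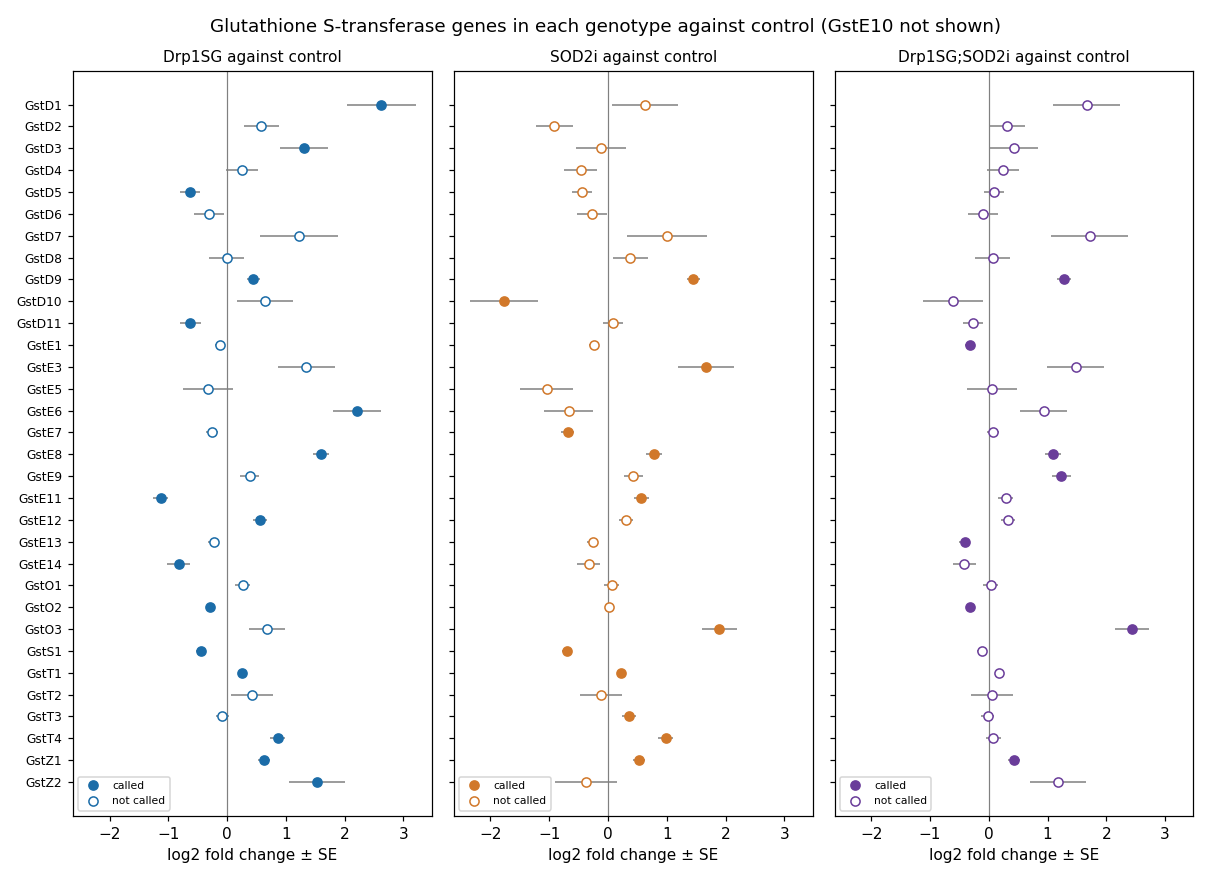
Log2 fold change ± standard error of 32 tested members against control in Drp1SG, SOD2i and the double genotype, filled where called. GstE10 is left out because it had 0 reads in control. Filled points lie on both sides of 0 in each panel, from -1.13 for GstE11 to 2.62 for GstD1 in Drp1SG.

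The sigma gene GstS1 was lower in both single genotypes and close to control in the double genotype. It encodes the 4-hydroxynonenal-conjugating enzyme of flies and was the member with the most reads. It was at 232, 241 and 246 CPM in control, 179, 164 and 184 in Drp1SG, 129.7, 149.6 and 165 in SOD2i and 217, 235 and 209 in the double genotype. All 6 libraries of the single genotypes lay below all control and double-genotype libraries. Its log2 fold change against control was -0.45 ± 0.09 (adjusted p = 0.00433) in Drp1SG and -0.69 ± 0.09 (adjusted p = 1.69e-04) in SOD2i, against -0.12 ± 0.09 (adjusted p = 0.431) in the double genotype, which was not called. Set against the single genotypes, the double genotype was higher than SOD2i by 0.57 ± 0.09 (adjusted p = 0.00115) and higher than Drp1SG by 0.33 ± 0.09 (adjusted p = 0.0319). The call against Drp1SG was lost without any 1 Drp1SG library or any 1 double-genotype library (adjusted p from 0.0517 to 0.128).

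Omega genes went different ways. GstO2, an omega thiol transferase and the most abundant of the class, was at 141, 159.7 and 159.7 CPM in control, 124, 127 and 127 in Drp1SG, 143, 167 and 158 in SOD2i and 123, 132 and 114 in the double genotype. Drp1SG and double-genotype libraries lay below every control and SOD2i library, which overlapped each other. Its log2 fold change against control was -0.29 ± 0.08 (adjusted p = 0.0275) in Drp1SG and -0.32 ± 0.08 (adjusted p = 0.0303) in the double genotype, and the double genotype was lower than SOD2i, at -0.34 ± 0.08 (adjusted p = 0.0126). The Drp1SG call was lost without control replicate 2 or 3 or any 1 Drp1SG library (adjusted p from 0.0514 to 0.0942). The Drp1SG value with the maternal index was -0.17 (adjusted p = 0.229). The call of the double genotype against control was lost without control replicate 2 or 3, Drp1SG replicate 2 or double-genotype replicate 1 or 3 (adjusted p from 0.0548 to 0.1304). About 3.5% of the exon bases of GstO2 are shared with se, a further omega-type gene on the opposite strand, and reads there could belong to either.

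GstO3 was a rare transcript that rose with SOD2i. It was at 0.285, 0.177 and 0.166 CPM in control, 0.267, 0.355 and 0.385 in Drp1SG, 0.834, 0.843 and 0.674 in SOD2i and 1.34, 0.845 and 1.24 in the double genotype. Every SOD2i and double-genotype library lay above every control and Drp1SG library. The log2 fold change against control was 1.89 ± 0.30 (adjusted p = 8.39e-04) in SOD2i and 2.44 ± 0.30 (adjusted p = 3.72e-04) in the double genotype. In Drp1SG it was 0.68 ± 0.31 (adjusted p = 0.153), not called, and the double genotype was above Drp1SG by 1.76 ± 0.28 (adjusted p = 0.00201). GstO1 was at 12.01, 13.2 and 11.3 CPM in control, 13.003, 14.97 and 15.9 in Drp1SG, 14.3, 10.3 and 13.5 in SOD2i and 12.7, 12.03 and 12.5 in the double genotype, with overlapping groups, and was called in none of the 6 comparisons.

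Among the theta genes, GstT4 showed the largest difference between the single genotypes and their combination. It was at 6.23, 6.85 and 6.66 CPM in control, 13.003, 12.7 and 10.1 in Drp1SG, 11.2, 15.2 and 12.6 in SOD2i and 6.79, 6.97 and 7.09 in the double genotype. All 6 single-genotype libraries lay above 10 CPM, and all control and double-genotype libraries below 7.1 CPM. The log2 fold change against control was 0.86 ± 0.13 (adjusted p = 0.00124) in Drp1SG, 0.98 ± 0.13 (adjusted p = 3.24e-04) in SOD2i and 0.08 ± 0.13 (adjusted p = 0.757) in the double genotype, the last not called. Against Drp1SG the double genotype was at -0.78 ± 0.13 (adjusted p = 0.003503) and against SOD2i at -0.90 ± 0.13 (adjusted p = 0.00108), lower in both.

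GstT1, the abundant theta gene, was at 73.8, 77.8 and 82.2 CPM in control, 90.2, 91.8 and 96.4 in Drp1SG, 85.9, 90.2 and 98.03 in SOD2i and 83.9, 93.97 and 86.5 in the double genotype. Every library of the other genotypes lay above the control ones, and the log2 fold change was 0.25 ± 0.07 (adjusted p = 0.0343) in Drp1SG and 0.23 ± 0.07 (adjusted p = 0.0427) in SOD2i. The Drp1SG call was lost without control replicate 1 or 2 or Drp1SG replicate 2 or 3 (adjusted p from 0.0743 to 0.103), and the SOD2i call without any 1 control library, Drp1SG replicate 2 or SOD2i replicate 2 or 3 (adjusted p from 0.0511 to 0.137). GstT3 was at 13.6, 12.8 and 11.1 CPM in control, 11.9, 11.9 and 11.6 in Drp1SG, 17.7, 14.4 and 15.97 in SOD2i and 13.3, 11.5 and 12.2 in the double genotype. The SOD2i libraries were the highest of the 12, with a log2 fold change of 0.36 ± 0.11 (adjusted p = 0.0378) against control, and the double genotype was lower than SOD2i, at -0.38 ± 0.11 (adjusted p = 0.0347). The call against control was lost without control replicate 2 or 3, any 1 Drp1SG library, SOD2i replicate 1 or 3 or double-genotype replicate 3 (adjusted p from 0.05099 to 0.153), and that of the double genotype against SOD2i without control replicate 2, any 1 Drp1SG library, SOD2i replicate 1 or 3 or any 1 double-genotype library (adjusted p from 0.0535 to 0.123). GstT2, the neighbour of GstT1, ranged from 1.57 to 4.75 CPM and was not called, and 25.1% of its exon bases lie in the opposite-strand gene CG12926.

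The zeta gene GstZ1 was higher in all 3 genotypes than in control. It encodes a maleylacetoacetate isomerase of tyrosine breakdown and was at 18.5, 19.6 and 22.4 CPM in control, 31.6, 30.8 and 30.7 in Drp1SG, 26.8, 29.3 and 31.1 in SOD2i and 27.1, 29.96 and 24.6 in the double genotype. No control library reached the lowest library of any other genotype. Its log2 fold change was 0.62 ± 0.10 (adjusted p = 0.00158) in Drp1SG, 0.53 ± 0.10 (adjusted p = 0.00286) in SOD2i and 0.43 ± 0.10 (adjusted p = 0.0209) in the double genotype. The call in the double genotype was lost without control replicate 1 or 2 or double-genotype replicate 2 (adjusted p from 0.0554 to 0.0625).

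GstZ2, which lies next to GstZ1, was a low transcript at 0.143, 0.207 and 0.117 CPM in control, 0.393, 0.418 and 0.551 in Drp1SG, 0.0303, 0.218 and 0.112 in SOD2i and 0.376, 0.401 and 0.293 in the double genotype. Drp1SG and double-genotype libraries lay above every control and SOD2i library. Its log2 fold change was 1.53 ± 0.47 (adjusted p = 0.0428) in Drp1SG against control and 1.56 ± 0.49 (adjusted p = 0.04601) in the double genotype against SOD2i. GstZ2 reached the filter level of 0.145 CPM in all 3 libraries of Drp1SG and of the double genotype. In control and in SOD2i it did so in 1 library each. It was thus kept for testing through the genotypes called higher, and both calls are descriptions. The first call was lost without any 1 control library, any 1 Drp1SG library, SOD2i replicate 3 or any 1 double-genotype library (adjusted p from 0.0536 to 0.1398). The second was lost without any 1 control library, any 1 Drp1SG library, SOD2i replicate 1 or 3 or any 1 double-genotype library (adjusted p from 0.0516 to 0.128), and without SOD2i replicate 2 its value was 2.27 (adjusted p = 0.0169).

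The delta genes lie mostly in 1 chromosomal run of 10 neighbours in RefSeq's gene order (assembly Release 6 plus ISO1 MT), GstD10, GstD9 and then GstD1 to GstD8, with GstD11 beyond 1 further gene, CG10035. Of the 11 delta genes, 5 were called in Drp1SG, 3 higher and 2 lower, 2 in SOD2i and 1 in the double genotype, or 45.5%, 18.2% and 9.09%, where 18.6%, 23.2% and 8.91% of all tested genes were called. The last pair of shares are at or below the background. GstD1 encodes an enzyme that metabolizes DDT, and its upstream region is widely used as a reporter of Keap1 and cnc activity. It was at 1.35, 4.68 and 1.71 CPM in control, 11.4, 19.9 and 16.5 in Drp1SG, 7.23, 1.64 and 3.16 in SOD2i and 11.4, 8.65 and 4.61 in the double genotype. All Drp1SG libraries lay above all control libraries, while SOD2i overlapped control and the double genotype overlapped both SOD2i and control. The log2 fold change was 2.62 ± 0.58 (adjusted p = 0.00942) in Drp1SG, the largest of the 32 members with reads in control. It was 0.63 ± 0.56 (adjusted p = 0.4701) in SOD2i and 1.67 ± 0.57 (adjusted p = 0.0944) in the double genotype, neither of them called. Control replicate 2 carried much of the spread among controls. Without it the log2 fold change was 3.40 (adjusted p = 0.00665) in Drp1SG, and 2.44 (adjusted p = 0.0459) in the double genotype, which was then called. Adding the maternal index as a covariate gave 1.29 (adjusted p = 0.0935) in Drp1SG, past the threshold no more, and 1.06 (adjusted p = 0.116) in the double genotype.

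GstD9 was the delta gene with the most reads and was highest in the genotypes with SOD2i. It was at 10.2, 9.82 and 12.9 CPM in control, 14.9, 14.7 and 15.1 in Drp1SG, 28.6, 28.9 and 32.6 in SOD2i and 25.8, 28.96 and 25.3 in the double genotype. The 6 libraries with SOD2i lay above 25 CPM, the Drp1SG libraries between 14.7 and 15.1 CPM and the control libraries below 13 CPM. Against control, the log2 fold change was 1.45 ± 0.12 (adjusted p = 6.77e-06) in SOD2i, 1.28 ± 0.12 (adjusted p = 3.72e-05) in the double genotype and 0.44 ± 0.11 (adjusted p = 0.0189) in Drp1SG. The double genotype was above Drp1SG by 0.84 ± 0.11 (adjusted p = 7.62e-04). The Drp1SG call was lost without control replicate 1 or 2 (adjusted p from 0.0593 to 0.0618).

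GstD5 was at 5.58, 6.899 and 9.39 CPM in control, 4.66, 4.78 and 4.74 in Drp1SG, 5.03, 6.12 and 4.93 in SOD2i and 7.83, 8.09 and 7.37 in the double genotype. Drp1SG libraries lay below all control and double-genotype libraries. The log2 fold change was -0.63 ± 0.17 (adjusted p = 0.0252) in Drp1SG and -0.44 ± 0.17 (adjusted p = 0.0827) in SOD2i, which was not called, and the double genotype was above Drp1SG by 0.72 ± 0.17 (adjusted p = 0.0202) and above SOD2i by 0.53 ± 0.17 (adjusted p = 0.0469). The Drp1SG call was lost without control replicate 3 or any 1 Drp1SG library (adjusted p from 0.0593 to 0.0718). Without control replicate 3 the Drp1SG value was -0.42 (adjusted p = 0.0593), and with the maternal index as covariate -0.25 (adjusted p = 0.339). The call of the double genotype against Drp1SG was lost without any 1 Drp1SG library or double-genotype replicate 2 (adjusted p from 0.0538 to 0.0609), and that against SOD2i without any 1 Drp1SG library, SOD2i replicate 1 or 3 or any 1 double-genotype library (adjusted p from 0.0509 to 0.121).

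A further 4 delta genes, all below 3 CPM, were called in 1 comparison each. GstD3 was at 0.6498, 0.9898 and 0.683 CPM in control, 1.46, 2.54 and 1.76 in Drp1SG, 1.24, 0.359 and 0.547 in SOD2i and 1.31, 1.12 and 0.693 in the double genotype, and was higher in Drp1SG with a log2 fold change of 1.31 ± 0.41 (adjusted p = 0.0448). That call was lost without any 1 control library, any 1 Drp1SG library, SOD2i replicate 3 or double-genotype replicate 1 or 2 (adjusted p from 0.0515 to 0.1605). Adding the maternal index gave 0.36 (adjusted p = 0.6101). GstD11 was at 2.28, 2.75 and 2.21 CPM in control, 1.82, 1.25 and 1.62 in Drp1SG, 2.24, 2.84 and 2.62 in SOD2i and 2.05, 2.13 and 1.81 in the double genotype, and was lower in Drp1SG with -0.63 ± 0.18 (adjusted p = 0.0277), where all 3 libraries lay below control. The GstD11 call was lost without control replicate 2 or Drp1SG replicate 2 or 3 (adjusted p from 0.0601 to 0.112), and with the maternal index the value was -0.52 (adjusted p = 0.154). GstD2 was at 0.602, 0.443 and 0.333 CPM in control, 0.631, 0.648 and 0.785 in Drp1SG, 0.303, 0.203 and 0.225 in SOD2i and 0.563, 0.7304 and 0.426 in the double genotype. The double genotype exceeded SOD2i by 1.23 ± 0.31 (adjusted p = 0.0193), a call lost without SOD2i replicate 2 or 3 or double-genotype replicate 2 (adjusted p from 0.0643 to 0.0674). GstD10 was at 0.317, 0.236 and 0.0666 CPM in control, 0.393, 0.345 and 0.234 in Drp1SG, 0.0606, 0.0624 and 0.0561 in SOD2i and 0.101, 0.2005 and 0.107 in the double genotype, with SOD2i lower than control, at -1.77 ± 0.58 (adjusted p = 0.0455). Its SOD2i libraries held few reads, near the floor, and the call was lost without control replicate 1 or 2, any 1 Drp1SG library, any 1 SOD2i library or double-genotype replicate 1 or 3 (adjusted p from 0.05804 to 0.148). GstD10 reached the filter level of 0.145 CPM in 2 control and 0 SOD2i libraries, so its call is a description. GstD4, GstD6, GstD7 and GstD8 were called in no comparison, and ranged over the 12 libraries from 0.562 to 1.82, 0.537 to 0.935, 0.0148 to 0.272 and 0.517 to 1.33 CPM.

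**Figure D3:**
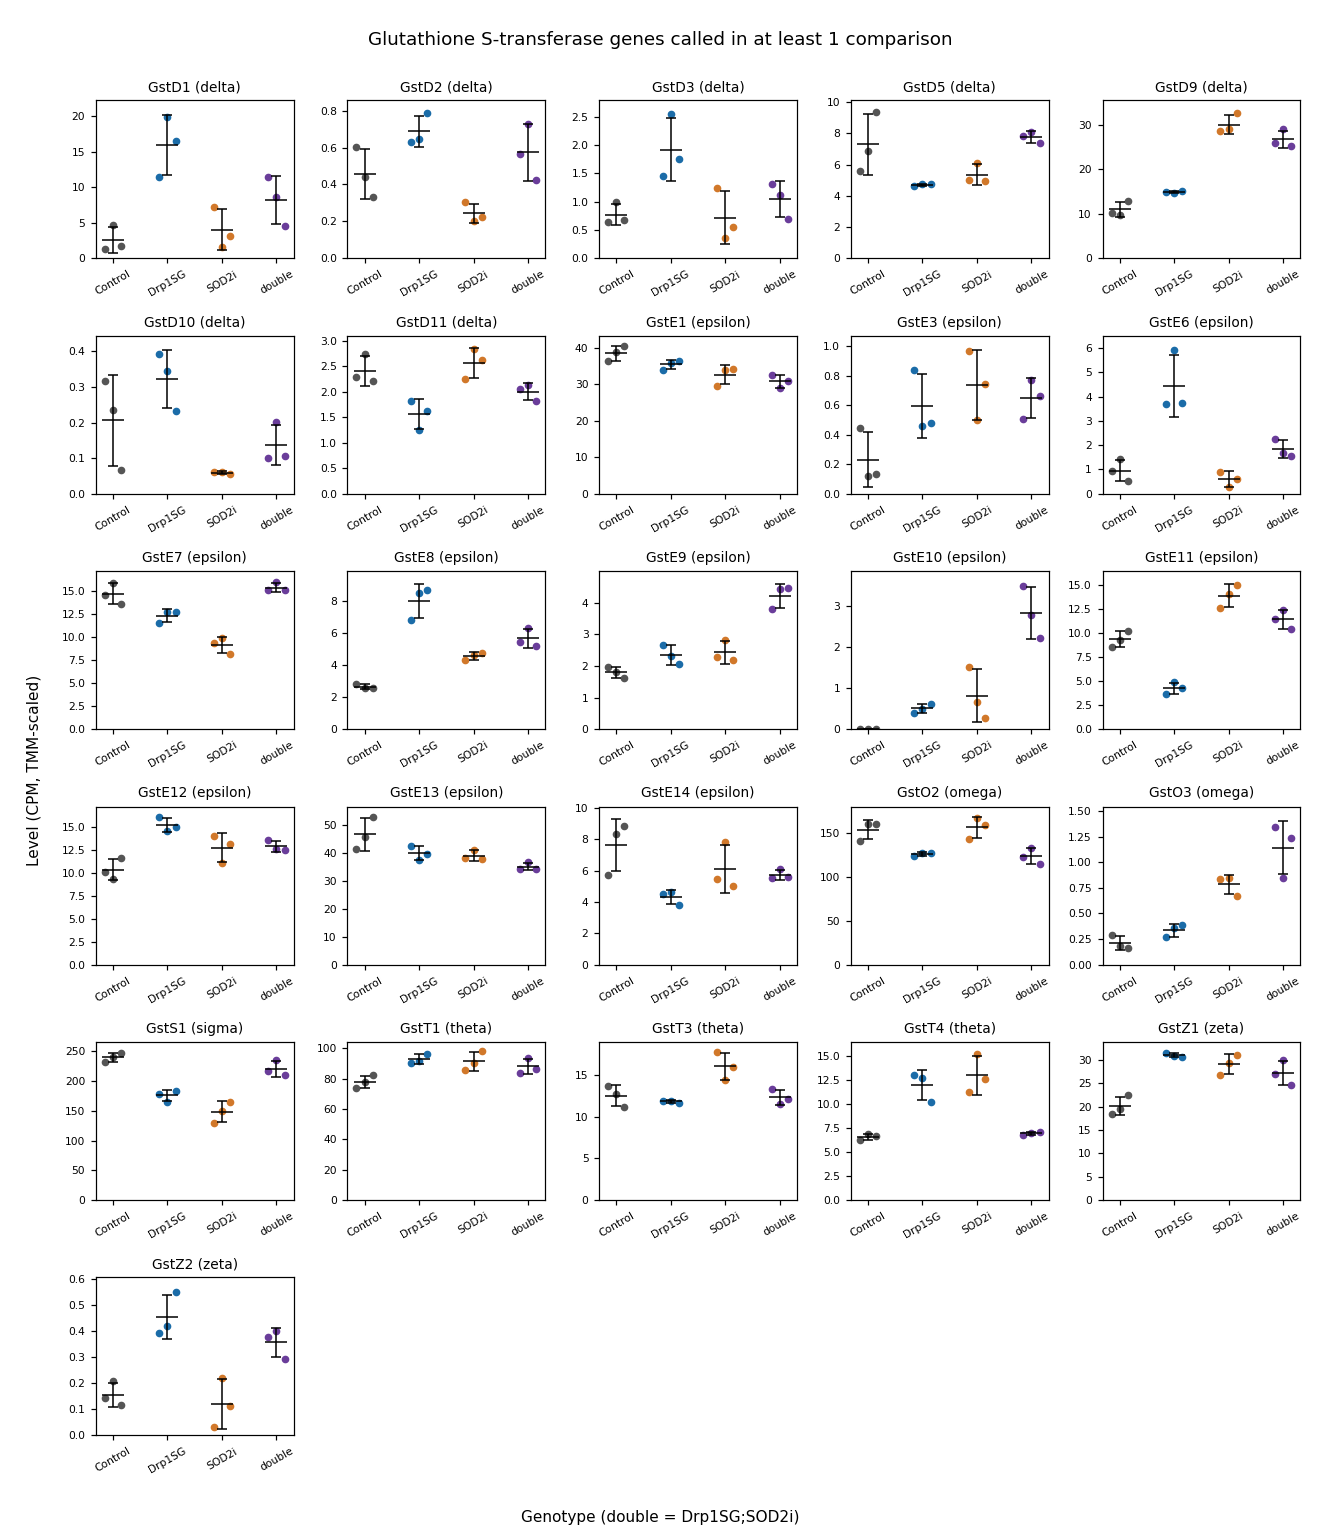
Level in CPM (linear axes from 0, 1 panel per gene) of the 26 members called in at least 1 of the 6 comparisons, with 1 point per library and the mean ± SD of 3 libraries as bars. GstS1 and GstT4 show the single genotypes on 1 side and the double genotype near control, GstD9 and GstO3 are highest in the genotypes with SOD2i, and GstE10 has 0 CPM in control.

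Of the 14 epsilon genes, 10 form another run of neighbours, GstE10 and GstE1 to GstE9, followed by imd, and GstE11 to GstE14 stand alone elsewhere. Of the 11 tested with reads in control, 3 were higher and 2 lower in Drp1SG, 3 higher and 1 lower in SOD2i, and 2 higher and 2 lower in the double genotype, or 45.5%, 36.4% and 36.4% called, against a background of 18.6%, 23.2% and 8.91%. GstE8 was higher in all 3 genotypes. It was at 2.82, 2.57 and 2.55 CPM in control, 6.78, 8.48 and 8.69 in Drp1SG, 4.28, 4.603 and 4.76 in SOD2i and 5.45, 6.32 and 5.17 in the double genotype. The 4 groups did not overlap, with control lowest, then SOD2i, the double genotype and Drp1SG. Relative to control, the log2 fold change was 1.59 ± 0.14 (adjusted p = 1.52e-05) in Drp1SG, 0.78 ± 0.14 (adjusted p = 0.00153) in SOD2i and 1.09 ± 0.14 (adjusted p = 4.30e-04) in the double genotype. Against Drp1SG the double genotype was lower, at -0.50 ± 0.13 (adjusted p = 0.0318), a call lost without Drp1SG replicate 2 or 3 or double-genotype replicate 1 or 3 (adjusted p from 0.113 to 0.132).

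GstE10 had no reads in any control library and some in every other. It was at 0, 0 and 0 CPM in control, 0.393, 0.502 and 0.6195 in Drp1SG, 1.52, 0.671 and 0.267 in SOD2i and 3.48, 2.76 and 2.21 in the double genotype. Against the floor of 3 reads in a control library (0.0499 CPM), mean levels were at least 10.1-fold higher in Drp1SG, at least 16.4-fold higher in SOD2i and at least 56.4-fold higher in the double genotype. Without SOD2i replicate 1, the highest of its group, the bound in SOD2i was 9.39-fold. No test against control is given, since the gene was kept for testing through the genotypes in which it had reads. The double genotype lay above every library of the single genotypes, by 2.48 ± 0.51 (adjusted p = 0.0134) against Drp1SG and 1.79 ± 0.49 (adjusted p = 0.0311) against SOD2i. The first of these was lost without Drp1SG replicate 1 or 2 (adjusted p from 0.0556 to 0.0597) and the second without SOD2i replicate 2 or 3 or any 1 double-genotype library (adjusted p from 0.0527 to 0.0969). Without SOD2i replicate 1, the double genotype was above SOD2i by 2.60 (adjusted p = 0.00429). Of its exon bases, 1.76% overlap GstE1 on the opposite strand.

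GstE9, at the far end of the run, was higher in the double genotype. It was at 1.97, 1.802 and 1.61 CPM in control, 2.67, 2.2997 and 2.07 in Drp1SG, 2.27, 2.82 and 2.18 in SOD2i and 3.78, 4.43 and 4.46 in the double genotype. Double-genotype libraries lay above all others. Relative to control, the log2 fold change was 1.23 ± 0.16 (adjusted p = 6.04e-04) in the double genotype, and 0.38 ± 0.16 (adjusted p = 0.119) and 0.43 ± 0.16 (adjusted p = 0.0729) in Drp1SG and SOD2i, neither called. The SOD2i value with the maternal index was 0.46 (adjusted p = 0.0498), past the threshold. With both, GstE9 was above Drp1SG by 0.85 ± 0.16 (adjusted p = 0.00518) and above SOD2i by 0.80 ± 0.16 (adjusted p = 0.00513). Of its exon bases 5.08% overlap imd on the opposite strand.

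GstE6 and GstE7, side by side in the run, differed in which genotype stood out. GstE6 was at 0.919, 1.42 and 0.533 CPM in control, 3.68, 5.91 and 3.74 in Drp1SG, 0.9097, 0.281 and 0.618 in SOD2i and 2.27, 1.69 and 1.55 in the double genotype. Drp1SG libraries lay above all others, with a log2 fold change of 2.21 ± 0.40 (adjusted p = 0.00319), while SOD2i at -0.67 ± 0.42 (adjusted p = 0.291) and the double genotype at 0.93 ± 0.40 (adjusted p = 0.179) were not called. Adding the maternal index, the value was 1.08 (adjusted p = 0.0312) in Drp1SG, still called, and -1.01 (adjusted p = 0.00847) in SOD2i, then called lower. Embryos with both were above SOD2i by 1.60 ± 0.41 (adjusted p = 0.0198), a call lost without SOD2i replicate 3 or double-genotype replicate 1 (adjusted p from 0.0624 to 0.0709). GstE7 was at 14.6, 15.9 and 13.6 CPM in control, 11.6, 12.7 and 12.7 in Drp1SG, 9.34, 9.86 and 8.197 in SOD2i and 15.1, 15.9 and 15.1 in the double genotype. SOD2i libraries lay below all others, with -0.69 ± 0.10 (adjusted p = 6.04e-04), and the double genotype was above SOD2i by 0.75 ± 0.10 (adjusted p = 7.08e-04). In Drp1SG the GstE7 value was -0.25 ± 0.10 (adjusted p = 0.1104), not called.

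GstE11 changed in opposite directions in the single genotypes. It was at 8.54, 9.28 and 10.2 CPM in control, 3.69, 4.86 and 4.23 in Drp1SG, 12.6, 14.1 and 14.9 in SOD2i and 11.4, 12.4 and 10.4 in the double genotype. Drp1SG libraries lay below and SOD2i libraries above all control libraries. Relative to control, it changed by -1.13 ± 0.13 (adjusted p = 1.71e-04) in Drp1SG, 0.57 ± 0.13 (adjusted p = 0.008304) in SOD2i and 0.29 ± 0.13 (adjusted p = 0.2004) in the double genotype, the last not called. Its level with both was above Drp1SG by 1.42 ± 0.13 (adjusted p = 5.32e-05).

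GstE12 was at 10.1, 9.29 and 11.6 CPM in control, 16.1, 14.5 and 15.03 in Drp1SG, 14.1, 11.05 and 13.2 in SOD2i and 13.6, 12.6 and 12.5 in the double genotype. Drp1SG libraries lay above all control libraries, with 0.56 ± 0.12 (adjusted p = 0.00742), and the values of SOD2i, 0.30 ± 0.12 (adjusted p = 0.0859), and the double genotype, 0.32 ± 0.12 (adjusted p = 0.118), were not called. Without SOD2i replicate 2 the SOD2i value was 0.39 (adjusted p = 0.0297), past the threshold. GstE14, known as Noppera-bo and needed for making the moulting hormone ecdysone, was at 5.74, 8.36 and 8.87 CPM in control, 4.53, 4.65 and 3.7996 in Drp1SG, 5.47, 7.83 and 4.997 in SOD2i and 5.53, 6.11 and 5.57 in the double genotype. In Drp1SG it was lower, at -0.82 ± 0.20 (adjusted p = 0.0141), a call lost without Drp1SG replicate 3 (adjusted p = 0.0522). Adding the maternal index gave -0.41 (adjusted p = 0.1602).

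GstE1 and GstE13, the most abundant epsilon genes, were called lower in the double genotype. In the single genotypes against control, and in the double genotype against the single ones, neither was called, except with the maternal index as covariate, when both were lower in SOD2i and in the double genotype against Drp1SG. GstE1 was at 36.2, 38.9 and 40.4 CPM in control, 33.9, 35.9 and 36.5 in Drp1SG, 29.6, 33.98 and 34.3 in SOD2i and 32.4, 28.97 and 30.9 in the double genotype, with -0.32 ± 0.08 (adjusted p = 0.03501) in the double genotype. GstE13 was at 41.5, 45.8 and 53.1 CPM in control, 42.6, 37.5 and 39.9 in Drp1SG, 38.1, 41.3 and 37.9 in SOD2i and 34.5, 36.7 and 34.5 in the double genotype, with -0.41 ± 0.09 (adjusted p = 0.0205). In both, the double-genotype libraries lay below all control libraries. The GstE1 call was lost without control replicate 2 or 3, any 1 Drp1SG library or any 1 double-genotype library (adjusted p from 0.0544 to 0.1405) and the GstE13 call without double-genotype replicate 1 or 3 (adjusted p from 0.0705 to 0.0706). GstE3 was a low transcript at 0.444, 0.118 and 0.133 CPM in control, 0.842, 0.45995 and 0.482 in Drp1SG, 0.9704, 0.499 and 0.744 in SOD2i and 0.506, 0.773 and 0.666 in the double genotype. SOD2i libraries lay above all control libraries, with 1.67 ± 0.48 (adjusted p = 0.0272). GstE3 reached the filter level of 0.145 CPM in 1 control library and in all 3 of each other genotype, so its call is a description. Without control replicate 1, the highest control, the GstE3 value was 2.54 (adjusted p = 0.00276), and the call was lost without control replicate 2 or 3 or SOD2i replicate 1 or 3 (adjusted p from 0.0694 to 0.104). GstE5, at 0.225 to 0.949 CPM, was not called.

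**Figure D4:**
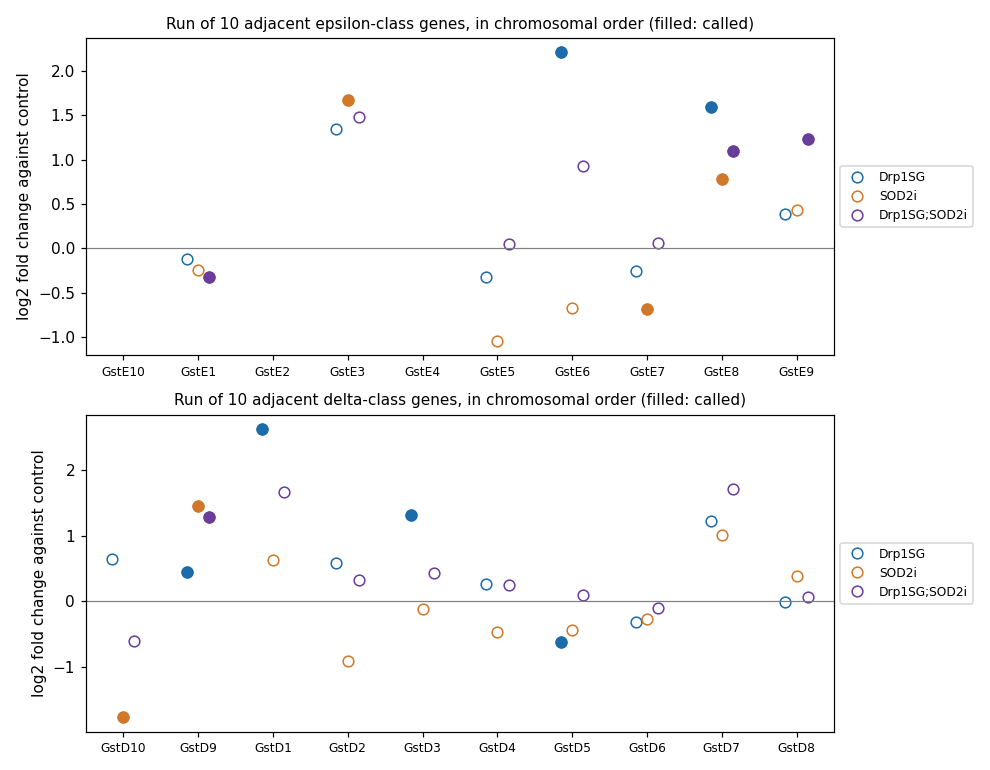
Log2 fold change against control along the epsilon run of 10 neighbours (top) and the delta run (bottom), in chromosomal order with equal spacing, filled where called. GstE2 and GstE4 were not tested and GstE10 had 0 reads in control, so they have no point. In Drp1SG, GstE6 is at 2.21 and called, and its neighbour GstE7 at -0.25 and not called.

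The double genotype was also set against each single one. Against Drp1SG, 9 of the 33 members, GstE10 included, were called, 7 higher and 2 lower, where 10.9% of all tested genes were called, 5.05% higher and 5.82% lower, and 3 changed at least 2-fold (background 4.27%). The higher ones were GstD5, GstD9, GstE9, GstE10, GstE11, GstO3 and GstS1, and the lower ones GstE8 and GstT4. Against SOD2i, 11 were called, 8 higher and 3 lower, with a background of 19.3%, 10.5% higher and 8.79% lower, and 4 changed at least 2-fold (background 7.15%). The higher ones were GstD2, GstD5, GstE6, GstE7, GstE9, GstE10, GstS1 and GstZ2, and the lower ones GstO2, GstT3 and GstT4. The median log2 fold change was -0.01 against Drp1SG and 0.17 against SOD2i, where all tested genes had 0.00 and 0.03.

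Drp1 and Sod2 themselves differed between the double and the single genotypes. Drp1 was lower than in Drp1SG, at -0.94 ± 0.14 (adjusted p = 0.00126). Sod2 was higher than in SOD2i, at 0.74 ± 0.17 (adjusted p = 0.0126), a call lost in a fit of only the groups compared (adjusted p = 0.0627). The part of these differences in the values below was not tested. Whether the double genotype equalled the sum of the single ones was tested as an interaction, the log2 fold change of the double genotype minus the sum of those of the single genotypes. The test called 9 of the 32 members with reads in control, 4 above and 5 below the sum, where 16.5% of all tested genes were called, 9.2% above and 7.34% below. Of the 32, 5 were called with a departure of at least 2-fold (9.55% of all tested genes). The 4 above were GstS1 with 1.02 ± 0.12 (adjusted p = 1.67e-04), GstE7 with 1.01 ± 0.15 (adjusted p = 6.82e-04), GstD5 with 1.16 ± 0.24 (adjusted p = 0.006602) and GstE11 with 0.85 ± 0.18 (adjusted p = 0.00817). For GstS1, GstE7 and GstD5 the sum of the single genotypes was negative and the double genotype lay near control. Below the sum were GstT4 with -1.76 ± 0.19 (adjusted p = 7.65e-05), GstE8 with -1.28 ± 0.19 (adjusted p = 7.68e-04), GstZ1 with -0.72 ± 0.14 (adjusted p = 0.00507), GstD9 with -0.62 ± 0.16 (adjusted p = 0.0218) and GstE12 with -0.54 ± 0.17 (adjusted p = 0.0457). The GstD9 call was lost without double-genotype replicate 1 or 3 (adjusted p from 0.05004 to 0.0513). The GstE12 call was lost without control replicate 1 or 2, any 1 Drp1SG library, SOD2i replicate 1 or 3 or any 1 double-genotype library (adjusted p from 0.0633 to 0.0915). Both were also lost under upper-quartile scaling (adjusted p = 0.0822 for GstD9 and 0.126 for GstE12).

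**Figure D5:**
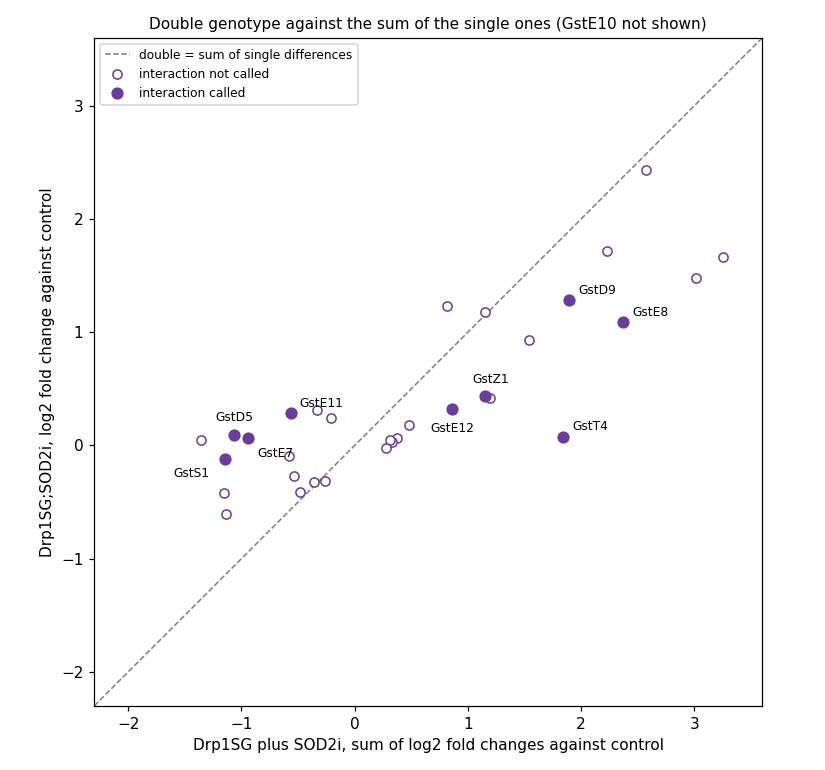
Log2 fold change of the double genotype against control (vertical) and the sum of the log2 fold changes of Drp1SG and SOD2i (horizontal) for 32 tested members, with filled points where the interaction was called. The dashed line is equality. GstT4 lies 1.76 below the line and GstS1 1.02 above it.

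Other genes of glutathione synthesis, use and supply were taken as a list of 23, of which 20 were tested and gfzf, PHGPx and Grx1t were not. In Drp1SG 4 were higher and 0 lower, in SOD2i 5 higher and 0 lower, and in the double genotype 2 higher and 1 lower. These are 20%, 25% and 15% of the 20, against 18.6%, 23.2% and 8.91% of all tested genes, so the shares in the single genotypes are near the background. List medians of log2 fold change were 0.43, 0.14 and 0.25, against 0.01, 0.00 and 0.00 over all tested genes. Gclc and Gclm, the catalytic and regulatory subunits of the enzyme that starts glutathione synthesis, were called in none of the 6 comparisons. Gclc was at 8.59, 10.3 and 3.08 CPM in control, 13.9, 20.1 and 18.8 in Drp1SG, 12.3, 1.701 and 6.95 in SOD2i and 15.8, 9.49 and 11.1 in the double genotype, and its control and SOD2i libraries spread widely. Gclm was at 36.8, 40.9 and 27.9 CPM in control, 33.5, 42.6 and 43.7 in Drp1SG, 44.1, 31.3 and 43.8 in SOD2i and 41.2, 37.4 and 37.6 in the double genotype, with overlapping groups.

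MRP, an ABC transporter of the family that exports glutathione conjugates, was higher in both single genotypes. It was at 233, 208 and 166 CPM in control, 355, 341 and 334 in Drp1SG, 407, 367 and 391 in SOD2i and 221, 184 and 214 in the double genotype. The 6 single-genotype libraries lay above 330 CPM and the control and double-genotype ones below 240 CPM. Relative to control, MRP changed by 0.76 ± 0.11 (adjusted p = 7.78e-04) on the log2 scale in Drp1SG and 0.94 ± 0.11 (adjusted p = 1.13e-04) in SOD2i, and the double genotype was lower than Drp1SG, at -0.73 ± 0.11 (adjusted p = 0.00154), and than SOD2i, at -0.91 ± 0.11 (adjusted p = 3.01e-04). Mgstl, the microsomal glutathione S-transferase, a membrane enzyme outside the soluble classes, was at 10.5, 9.17 and 9.37 CPM in control, 13.05, 14.3 and 15.2 in Drp1SG, 16.95, 15.2 and 19.9 in SOD2i and 12.2, 13.3 and 15.1 in the double genotype. Its 9 libraries outside control all lay above the control ones, with 0.55 ± 0.13 (adjusted p = 0.0112) in Drp1SG, 0.84 ± 0.13 (adjusted p = 6.09e-04) in SOD2i and 0.48 ± 0.13 (adjusted p = 0.0361) in the double genotype. The last call was lost without control replicate 2 or 3, Drp1SG replicate 2 or 3 or any 1 double-genotype library (adjusted p from 0.0502 to 0.148). Adding the maternal index, the Drp1SG value of Mgstl was 0.42 (adjusted p = 0.07095).

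Men, the cytosolic malic enzyme that yields NADPH, was at 11.5, 14.7 and 4.91 CPM in control, 20.4, 22.4 and 23.3 in Drp1SG, 23.2, 17.4 and 19.8 in SOD2i and 26.4, 18.6 and 22.6 in the double genotype. All libraries outside control lay above the control ones. Its log2 fold change was 1.08 ± 0.30 (adjusted p = 0.0261) in Drp1SG, 0.95 ± 0.30 (adjusted p = 0.0378) in SOD2i and 1.12 ± 0.30 (adjusted p = 0.0391) in the double genotype. Those calls were lost, in the same order, without any 1 Drp1SG library (adjusted p from 0.0513 to 0.0753), without control replicate 1, any 1 Drp1SG library, SOD2i replicate 1 or 3 or double-genotype replicate 3 (adjusted p from 0.0508 to 0.09999) and without control replicate 1, any 1 Drp1SG library, SOD2i replicate 3 or any 1 double-genotype library (adjusted p from 0.0541 to 0.124). With the maternal index the Drp1SG value of Men was 0.47 (adjusted p = 0.198). Pgd, a pentose phosphate pathway dehydrogenase that also yields NADPH, averaged 6.49 ± 1.37 CPM in control and 12.4 ± 1.98 in Drp1SG, a difference of 0.93 ± 0.19 (adjusted p = 0.00534) on the log2 scale.

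In SOD2i, cl was higher by 0.38 ± 0.08 (adjusted p = 0.00544), with means of 77.7 ± 8.19 CPM in control and 101 ± 3.7998 in SOD2i. That call was lost under upper-quartile scaling, with 0.30 (adjusted p = 0.0523). CG14407, listed as Grx5, a mitochondrial glutaredoxin, was higher by 0.28 ± 0.09 (adjusted p = 0.0353), a call lost without control replicate 1 or 3 or SOD2i replicate 2 or 3 (adjusted p from 0.0555 to 0.121). Gss1, a glutathione synthetase, was lower in the double genotype with a mean of 0.774 ± 0.0465 CPM, against 1.51 ± 0.551 in control, 1.39 ± 0.199 in Drp1SG and 1.53 ± 0.0654 in SOD2i. For Gss1 the log2 fold change was -0.96 ± 0.25 (adjusted p = 0.0328) against control, -0.84 ± 0.24 (adjusted p = 0.0487) against Drp1SG and -0.98 ± 0.25 (adjusted p = 0.0173) against SOD2i. These calls were lost, in the same order, without control replicate 2 or 3, Drp1SG replicate 2 or any 1 double-genotype library (adjusted p from 0.0502 to 0.107), without control replicate 2, any 1 Drp1SG library, any 1 SOD2i library or any 1 double-genotype library (adjusted p from 0.0539 to 0.139) and without double-genotype replicate 1 (adjusted p = 0.05496). The interaction was called for MRP with -1.67 ± 0.16 (adjusted p = 2.52e-05), Mgstl with -0.91 ± 0.18 (adjusted p = 0.0046997), cl with -0.38 ± 0.11 (adjusted p = 0.0427) and Pgd with -0.85 ± 0.26 (adjusted p = 0.0455), all below the sum of the single genotypes. The cl call was lost without control replicate 1 or 2, any 1 Drp1SG library, SOD2i replicate 2 or 3 or double-genotype replicate 1 or 3 (adjusted p from 0.0553 to 0.07995). The Pgd call was lost without control replicate 1 or 3, Drp1SG replicate 2 or 3, SOD2i replicate 1 or 2 or any 1 double-genotype library (adjusted p from 0.0682 to 0.106). Both were also lost under upper-quartile scaling (adjusted p = 0.234 for cl and 0.0768 for Pgd).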

How the data were processed

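Poly(T)-captured RNA of 12 embryo libraries was read from the tables that the authors deposited. They hold unscaled counts of reads for each gene, on which all tests here were run, a normalized signal (the deposited counts times 1 factor per library), and, per gene, the log2 fold change, p-value and adjusted p-value of the authors' own DESeq2 comparisons. The submitters' processing notes list, without saying what each did, DESeq2, featureCounts 1.5.2, HISAT2 2.1.0, Bowtie2 2.2.4 and Trimmomatic. The genome build, the strand used in counting and the handling of reads shared by near-identical copies are not given in the sources used here, so no coordinates are printed and counts of close neighbours in the delta and epsilon runs could have been split between copies. 

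The analysis used edgeR 4.0.16 in R 4.3.3 (filterByExpr, TMM, 1 quasi-likelihood fit to the 12 libraries with a mean for each genotype) and tested 9863 of 17868 genes, with a common biological coefficient of variation of 0.176. A call needed a Benjamini-Hochberg adjusted p below 0.05. The 6 comparisons were each genotype against control, the double genotype against each single one, and the interaction. Levels in CPM rest on TMM-scaled sizes, and log2 CPM on a prior count of 2. Ensembl's annotation BDGP6.54 gave exon lengths and overlaps, and RefSeq the order of genes. Where no label says that replicates came from separate crosses, p-values measure the spread between these pools.

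Members, gene lists and tests were chosen with earlier results of these data known. A member is given in every library when called in at least 1 of the 6 comparisons or at a mean of at least 5 CPM. Of the glutathione list, called genes and Gclc and Gclm are named. The procedure was tested on simulated data. Alternatives were DESeq2 1.42.0 size factors and Wald test, upper-quartile scaling, no filter or 1 CPM in 3 libraries, limma 3.58.1 with voom, only the groups compared, replicate number as a block, the maternal index as a covariate, and leaving out each library, where a genotype left with 2 is assumed to vary like the others.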

Additional observations from a re-analysis of the deposited data

Results flagged for a closer look

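In 9 of the 32 tested members with reads in control and 4 of the 20 tested genes of the glutathione list, the effect of Drp1SG differed between embryos with and without SOD2i by the interaction test of edgeR (Benjamini-Hochberg over 9863 genes), which called 16.5% of all tested genes. Among the glutathione S-transferases the log2 interaction was positive for GstD5 with 1.16 ± 0.24 (adjusted p = 0.006602), GstE7 with 1.01 ± 0.15 (adjusted p = 6.82e-04), GstE11 with 0.85 ± 0.18 (adjusted p = 0.00817) and GstS1 with 1.02 ± 0.12 (adjusted p = 1.67e-04). GstS1 and GstD5 were lower with Drp1SG in the absence of SOD2i and higher with it in its presence. It was negative for GstD9 with -0.62 ± 0.16 (adjusted p = 0.0218), GstE8 with -1.28 ± 0.19 (adjusted p = 7.68e-04), GstE12 with -0.54 ± 0.17 (adjusted p = 0.0457), GstT4 with -1.76 ± 0.19 (adjusted p = 7.65e-05) and GstZ1 with -0.72 ± 0.14 (adjusted p = 0.00507). GstE10 is left out because all 3 control libraries had 0 reads. In the glutathione list the value was negative for Mgstl with -0.91 ± 0.18 (adjusted p = 0.0046997), cl with -0.38 ± 0.11 (adjusted p = 0.0427), MRP with -1.67 ± 0.16 (adjusted p = 2.52e-05) and Pgd with -0.85 ± 0.26 (adjusted p = 0.0455). The calls of GstD9, GstE12, cl and Pgd were lost when any of several single libraries was left out. They were also lost under upper-quartile scaling (adjusted p = 0.0822, 0.126, 0.234 and 0.0768 in that order). Those of GstE12, cl and Pgd were further lost with a filter of 1 CPM in 3 libraries. Drp1 was lower in the double genotype than in Drp1SG and Sod2 higher than in SOD2i, and the part of this in the interaction was not tested.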

How the results depend on the processing

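Leaving out GstE10 against control and in the interaction, 36 of 65 member calls in the 6 comparisons were kept under every setting that could be run and 29 were lost under at least 1, and no called value changed sign. Counts of calls below include GstE10. The share of all tested genes called under each setting is not given here. These counts thus describe which member calls were kept, and do not set the family against other genes. The maternal index as a covariate left 11 calls in Drp1SG against control in place of 17, ending those of GstD1, GstD3, GstD5, GstD11, GstE14 and GstO2, and gave 18 calls in SOD2i in place of 13, adding GstD2, GstE1, GstE6, GstE9 and GstE13. A fit of only the groups compared left 5 calls in the double genotype against control in place of 9, ending those of GstE1, GstE13, GstO2 and GstZ1, and by its construction it could not be fitted for the interaction. Counts over the 12 settings that leave out 1 library ran from 10 to 17 in Drp1SG, 9 to 15 in SOD2i and 6 to 9 in the double genotype, each against control, from 5 to 11 in the double genotype against Drp1SG, 5 to 10 against SOD2i and 7 to 11 for the interaction. GstD1 in SOD2i, 0.63 and not called, was -0.089 (adjusted p = 0.927) without SOD2i replicate 1 and 1.40 (adjusted p = 0.126) without control replicate 2. Upper-quartile scaling moved the median of all genes by up to 0.10 on the log2 scale, in the interaction, and ended the calls of GstD9 and GstT1 in Drp1SG and of GstT1, GstT3 and cl in SOD2i, among others. Labels do not say that replicate numbers mark shared batches, and of 18 same-numbered pairs only 6 correlated above 0.1 (r from -0.27 to 0.22). Pairs with different numbers reached -0.37 and 0.47, so these values cannot tell whether libraries of the same number shared a batch. With the replicate block, 14, 12 and 8 members were called in Drp1SG, SOD2i and the double genotype against control, 8 and 9 in the double genotype against Drp1SG and SOD2i, and 10 in the interaction. DESeq2 size factors and the DESeq2 Wald test ended no call among those tested. Except where stated, the cause of these changes was not tested. Depth limits the rare members: GstD7, GstD10, GstE2, GstE4 and GstZ2 had libraries within a few reads of the floor.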
